A study of Mus musculus with 7 samples.

Results

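The genes described are 47 that encode lysosomal proteins: 15 proteases, 11 glycosidases, 7 sulfatases or phosphatases, 5 lipid hydrolases, 3 luminal cofactors or carriers and 6 membrane proteins. They were chosen by symbol with earlier results of these data known, so their shares beside all tested genes are descriptions and not tests. All 47 were found among the 22173 genes of the deposited table. Messenger RNA had been sequenced in 7 libraries of mouse spleen. Before the transplantation, sHA-X, a biomaterial used to remodel the spleen, was given by 4 injections to the sHA-X group (4 libraries), and the PBS group (3 libraries) received phosphate-buffered saline. Hepatocytes, the metabolic cells of the liver, were then injected into the spleens of both groups, and all spleens were taken 30 days later. The comparison asks how an sHA-X-remodelled spleen differs from a saline-treated one, both injected with hepatocytes, so no group shows a spleen without that injection. Strain, sex, age, the source of the hepatocytes and whether each library is a separate animal are not stated in the labels, so the p-values here reflect the spread between libraries, which may be technical. Values are FPKM, fragments scaled to transcript length and library size, over 29543963 to 37142218 recovered reads per library. In whole spleen, fewer cells of a type and less RNA per cell cannot be told apart.

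Lysosomes are acidic organelles in which hydrolases break down proteins, glycans, lipids and nucleic acids delivered by endocytosis, phagocytosis and autophagy. Most of the soluble enzymes are made as inactive precursors, tagged with mannose 6-phosphate in the Golgi and activated in the acidic lumen, while heavily glycosylated membrane proteins line the organelle and carry products and ions across it. The red pulp macrophages of the spleen use this machinery to digest aged red blood cells, and antigen-presenting cells use part of it to prepare peptides for class II molecules. Many lysosomal genes carry in their promoters a palindrome built around CACGTG, known as the CLEAR element, which is bound by the transcription factors TFEB, TFE3 and MITF.

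Lysosomal transcripts were higher in sHA-X spleens for 23 of the 47 genes and lower for none, and 24 did not pass the test. At an unadjusted p under 0.05, 28 were higher and 1 was lower, and limma voom on recovered reads called 23 higher and 0 lower. All 47 passed the filter of a mean of at least 1 FPKM and were tested with limma on log2(FPKM + 1), adjusted over 11920 genes, with a gene called at an adjusted p under 0.05. Over all tested genes 9.3% were called higher and 5.03% lower. Every sHA-X library lay above every PBS library for 26 of the 47, against 17.2% of all tested genes, and every sHA-X library lay below every PBS library for 1, Arsb, against 11.5%. The median log2 change was 0.25 for the 47 and 0.03 for all tested genes, and 41 of the 47 changes were positive. Most rises were under 2-fold. By the ratio of mean FPKM only Ctsk (3.29-fold) and Gla (2.02-fold) reached that size. The calls came from 9 of 15 proteases, 4 of 11 glycosidases, 1 of 7 sulfatases or phosphatases, 3 of 5 lipid hydrolases, 2 of 3 luminal cofactors or carriers and 4 of 6 membrane proteins. Of the 23 calls, 18 held whichever single library was left out. Without both second replicates 15 genes were called higher, and the single libraries gave 18 (without PBS replicate 1) to 29 (without PBS replicate 3). With the replicate number added to the fit as a block, 10 of the 47 were called higher.

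Over all tested genes 1108 were higher and 600 lower, so 64.9% of calls were higher. With median ratio scaling this was 54.3% (1002 higher, 843 lower), and with quantile normalization 44.7% (758 higher, 938 lower). Of the 47 genes, these scalings called 23 and 22 higher. Arsb was called lower with median ratio scaling. Leaving out PBS replicate 1 or 2 or sHA-X replicate 4 left 488, 718 and 712 genes higher. For lower genes, leaving out PBS replicate 1 or sHA-X replicate 1, 3 or 4 left 228, 342, 345 and 351.

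**Figure D1:**
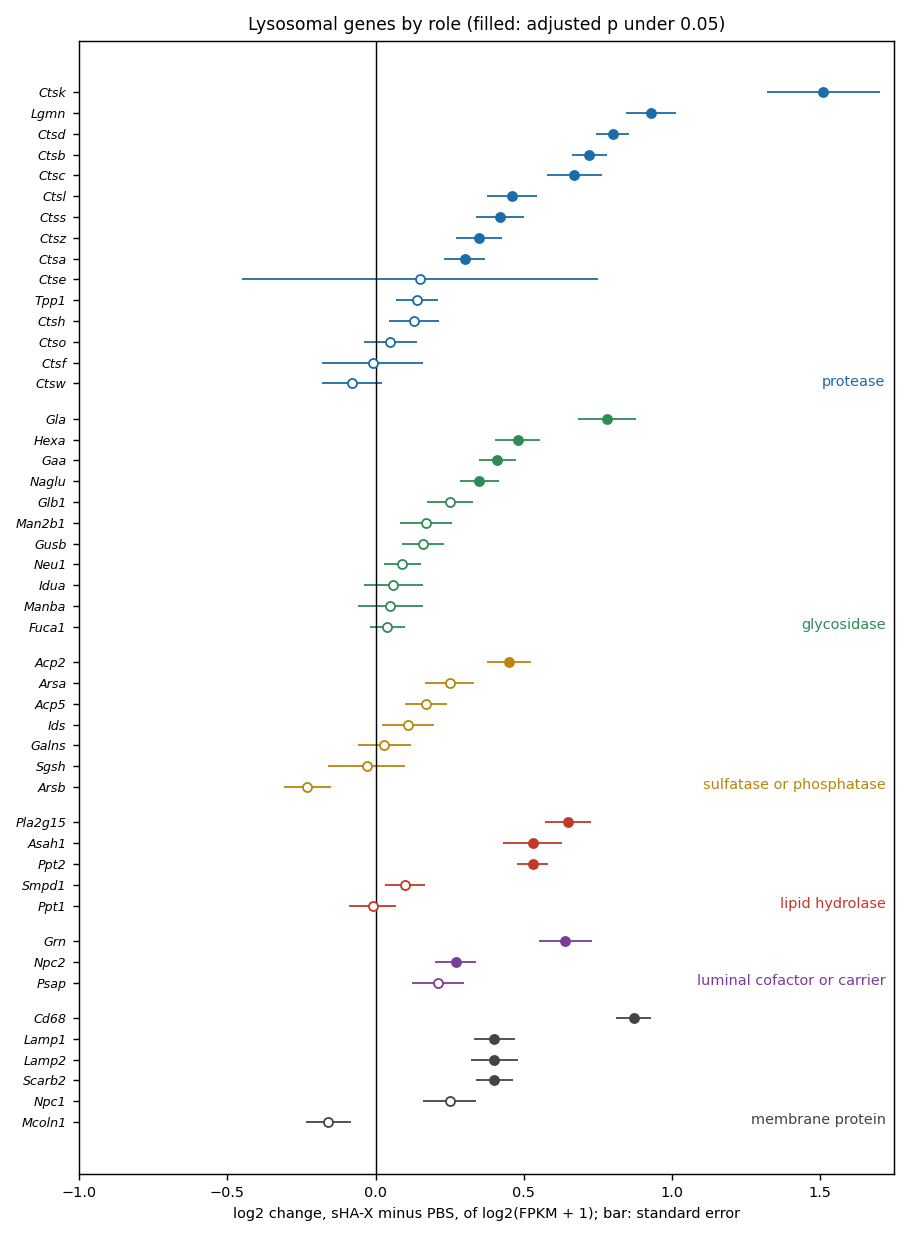
Change of each of the 47 genes, grouped by role, as the difference sHA-X minus PBS of mean log2(FPKM + 1) with its standard error; filled points have a limma adjusted p under 0.05. The 23 filled points all lie to the right of 0, led by Ctsk at 1.51, and the lowest point is Arsb at -0.23.

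The promoters are shown because CACGTG, the core of the CLEAR element, lies in 13 of the 40 genes with a promoter in RefSeq (GRCm38.p6), or 32.5%. Each promoter window runs from 250 bases before to 50 after the gene start of the RefSeq promoter table, which for Ctsa, Ctsl, Lgmn and Naglu lies inside the outermost bounds of the gene, and CACGTG reads the same on both strands. In the same windows CACGTG lies in 8.09% of all 27025 genes with a promoter there and in 11.5% of the 9620 such genes that were tested here. The longer CACGTGAC, sought with its reverse complement GTCACGTG, contains CACGTG and was found in 10 of the 40 genes (25.0%), in 2.55% of all genes and in 4.79% of tested ones. TCACGTGA lay in 4 of the 40 (Ctsa, Ctsd, Gla and Mcoln1), in 1.12% of all genes and in 2.27% of tested ones. The full CLEAR palindrome, which holds all 3 of these motifs, lay in 0 of the 40, in 0.37% of all genes and in 0.8% of tested ones. CACGTG was found in 8 of 21 genes called higher and in 5 of 19 not called. The 8 are Ctsa, Ctsd, Ctsl, Lgmn, Gla, Gaa, Naglu and Lamp1, and the 5 are Ctsf, Glb1, Arsa, Sgsh and Mcoln1. A match describes these letters and is not a measured binding site. Ctsb, Ctse, Ctsh, Ctsw, Asah1, Galns and Npc1 are not among the 40. The sequences below are the 250 bases before the start of Ctsd, the 100 bases before that of Lamp1, in which CACGTG occurs 4 times, and 20 bases on either side of a motif in 3 further genes that rose (Gla, Gaa, Naglu) and 3 that were not called (Glb1, Sgsh, Mcoln1). All are written 5′ to 3′ on the strand of the gene, with CACGTG in capitals.
Ctsd (chr7:142387828-142388077, - strand): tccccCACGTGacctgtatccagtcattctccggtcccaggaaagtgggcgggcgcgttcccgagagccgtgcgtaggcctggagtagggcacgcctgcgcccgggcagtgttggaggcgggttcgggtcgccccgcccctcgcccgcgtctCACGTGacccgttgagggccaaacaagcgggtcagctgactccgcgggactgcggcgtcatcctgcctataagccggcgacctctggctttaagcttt
Lamp1 (chr8:13159061-13159160, + strand): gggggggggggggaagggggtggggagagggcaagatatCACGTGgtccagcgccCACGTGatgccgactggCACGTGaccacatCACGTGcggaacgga
Gla (chrX:134601174-134601219, - strand): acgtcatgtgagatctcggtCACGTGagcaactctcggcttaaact
Gaa (chr11:119267803-119267848, + strand): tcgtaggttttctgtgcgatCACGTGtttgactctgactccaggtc
Naglu (chr11:101070001-101070046, + strand): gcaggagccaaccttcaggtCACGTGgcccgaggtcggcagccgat
Glb1 (chr9:114401010-114401055, + strand): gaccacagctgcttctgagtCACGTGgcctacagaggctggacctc
Sgsh (chr11:119355514-119355559, - strand): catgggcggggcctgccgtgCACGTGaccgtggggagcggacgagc
Mcoln1 (chr8:3500454-3500499, + strand): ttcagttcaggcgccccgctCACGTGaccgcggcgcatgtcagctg
In the 6 shorter windows the first base of the motif lies 194 (Gla), 140 (Gaa), 73 (Naglu), 48 (Glb1), 29 (Sgsh) and 45 (Mcoln1) bases before the start. Gla, which has the largest rise among the glycosidases, and Mcoln1, which has a negative change, both hold the motif more than once.

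The proteases held the largest change of the 47 genes, that of Ctsk, and the most abundant transcript in sHA-X, that of Ctsb. Lists of values are in the order of the replicate numbers, 1 to 3 for PBS and 1 to 4 for sHA-X, and means are given ± SD with n = 3 and n = 4. Ctsd (chromosome 7, 142375910 to 142387827 in RefSeq GRCm38.p6), the main aspartic protease of the lysosome, measured 346, 359 and 371 FPKM in PBS against 600.2, 622, 632 and 641 FPKM in sHA-X. The sHA-X libraries lay close together and the groups did not overlap. The log2 change was 0.80 (SE 0.056, limma adjusted p = 0.00026), or 1.74-fold by the ratio of means. Ctsb (chromosome 14, 63122462 to 63145923), a cysteine protease that also removes dipeptides from the carboxyl end, measured 629, 599.8 and 668 FPKM in PBS against 1067, 1037, 1044 and 1025 FPKM in sHA-X. Every sHA-X value was above every PBS value, and the change was 0.72 (SE 0.059, limma adjusted p = 0.00042). By the ratio of means Ctsb rose 1.65-fold, and the ratio of Ctsd to Ctsb lay between 0.55 and 0.599 in PBS and between 0.563 and 0.625 in sHA-X. RefSeq places Fdft1 over part of Ctsb, and since the labels do not state whether the libraries kept the strand, reads of overlapping genes cannot be told apart. In all, 21 of the 47 genes, 10 of the 23 called higher among them, overlap another RefSeq gene.

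Lgmn (chromosome 12, 102394082 to 102439728) encodes legumain, which cuts after asparagine and trims cathepsins to their mature chains. Its values were 86.7, 89.2 and 105 FPKM in PBS against 181, 166, 172 and 195 FPKM in sHA-X. The groups were well apart, with a gap between 105 and 166 FPKM, and the change was 0.93 (SE 0.085, limma adjusted p = 0.00065), 1.91-fold by the ratio of means. Ctsc, the dipeptidyl peptidase that activates the serine proteases of neutrophils and cytotoxic lymphocytes, had 26.3, 24.5 and 32.0 FPKM in PBS against 43.8, 41.9, 43.5 and 48.0 FPKM in sHA-X. PBS replicate 3 was the highest control but stayed below each sHA-X library, and the change was 0.67 (SE 0.093, limma adjusted p = 0.0033). Ctsk (chromosome 3, 95499210 to 95509387), a collagen-degrading protease best known from osteoclasts, was the lowest of the risen proteases in level and the first of all 47 in change, at 4.85, 3.85 and 5.25 FPKM in PBS against 19.7, 10.7, 16.0 and 14.7 FPKM in sHA-X. Its sHA-X values spread widely, with replicate 1 well above replicate 2, yet all were above the PBS values, and the change was 1.51 (SE 0.19, limma adjusted p = 0.0034). Ctsk in PBS replicate 2 rested on 195 recovered reads, the fewest behind any value of the 47. Fibroblast markers moved with it: 7 of 9 were called higher, with summed FPKM of 187 to 239 in PBS and 419 to 635 in sHA-X, and none at 0. Their highest sum was in sHA-X replicate 1 and their lowest sHA-X sum in replicate 2, the order of Ctsk at both ends. The part of these cells in the rise of Ctsk was not tested. Without PBS replicate 1 or 2, 4 and 3 of these markers were called.

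The other risen proteases changed less. Ctsl, an endopeptidase that processes antigens in thymic epithelium, measured 31.7, 26.5 and 34.3 FPKM in PBS against 42.9, 40.9, 42.1 and 44.3 FPKM in sHA-X, without overlap, and changed by 0.46 (SE 0.085, limma adjusted p = 0.01). Ctss, which degrades the class II invariant chain in B cells and dendritic cells, measured 409.5, 379 and 465 FPKM in PBS against 543, 549, 543 and 598 FPKM in sHA-X. Its sHA-X replicate 4 stood above the other 3, which were nearly equal, and the groups did not overlap. The change of 0.42 (SE 0.08, limma adjusted p = 0.011) missed the threshold without PBS replicate 1 (adjusted p = 0.053). Ctsz, a carboxypeptidase, was 187 ± 20.3 (PBS) and 237 ± 8.45 FPKM (sHA-X), and Ctsa, the serine carboxypeptidase that protects beta-galactosidase and sialidase, was 47.2 ± 4.27 (PBS) and 58.1 ± 1.94 FPKM (sHA-X). Their changes were 0.35 and 0.30 (limma adjusted p = 0.023 and 0.025). Both calls held in only 2 of the 7 fits that left out 1 library, with adjusted p up to 0.096 for Ctsz and 0.1 for Ctsa. For Ctsz the call was kept without PBS replicate 3 or sHA-X replicate 1, and for Ctsa without PBS replicate 3 or sHA-X replicate 3. RefSeq places Nelfcd over part of Ctsz, and Neurl2 and Pltp over parts of Ctsa.

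**Figure D2:**
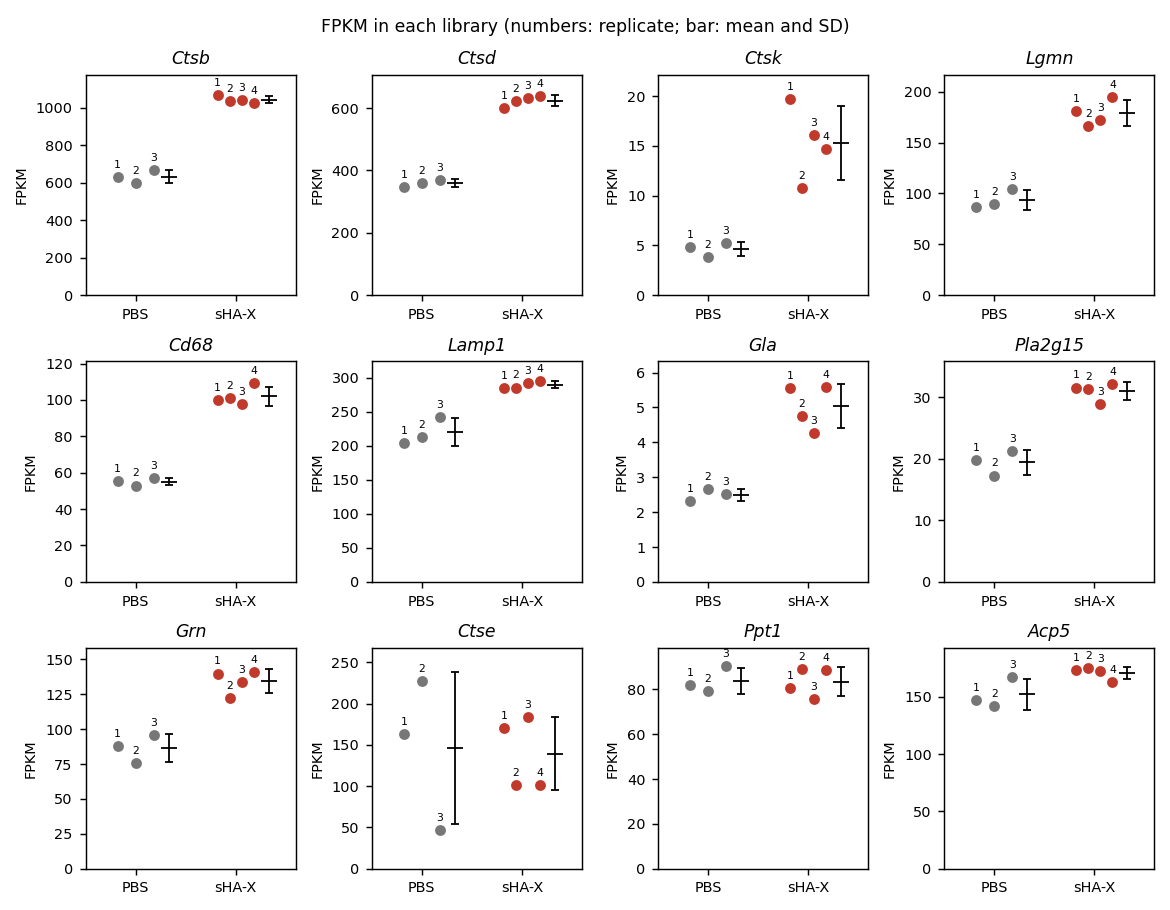
FPKM of 12 of the genes in each library, with points numbered by replicate (grey PBS, red sHA-X) and the mean ± SD (n = 3 and n = 4) beside them; each vertical axis starts at 0. Ctsb, Ctsd, Ctsk, Lgmn, Cd68, Lamp1, Gla, Pla2g15 and Grn show separate groups, while Ctse, Ppt1 and Acp5 overlap.

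The 6 proteases that did not pass the test were Ctse, Ctsf, Ctsh, Ctso, Ctsw and Tpp1. Ctse (chromosome 1, 131638314 to 131675507), an aspartic protease of endosomes that is also known from red blood cells, had the widest standard error of the 47, at 163, 228 and 46.7 FPKM in PBS against 171, 101, 184 and 102 FPKM in sHA-X. Its highest and lowest values were both PBS libraries, so the groups overlapped over their whole range, and the change was 0.15 (SE 0.6, limma adjusted p = 0.9). All 8 erythroid markers were, like Ctse, lowest among the PBS libraries in replicate 3, and in sHA-X higher in replicates 1 and 3 than in 2 and 4. In 4 of them PBS replicate 1 lay above replicate 2, unlike Ctse. Klf1, an erythroid transcription factor named after its values were seen, had the order of Ctse in PBS, at 78.3, 113 and 22.1 FPKM. The summed FPKM of 8 erythroid markers, 4 of them globins, was 25815 to 52478 in PBS and 18258 to 28707 in sHA-X, with none at 0 and 1 of 8 called, lower. Without PBS replicate 3, 4 were called lower, and without any other library except sHA-X replicate 3, 0 were. Their part in the values of Ctse was not tested. Ctsf, a cysteine protease, had a like order, at 9.88, 9.13 and 6.36 FPKM in PBS against 9.74, 6.69, 9.36 and 7.53 FPKM in sHA-X, with PBS replicate 3 the lowest of all and sHA-X replicates 2 and 4 below 1 and 3.

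Ctsw, a protease of cytotoxic lymphocytes, measured 12.1, 13.3 and 15.6 FPKM in PBS against 11.2, 12.4, 13.4 and 14.4 FPKM in sHA-X. The groups overlapped, and the change was -0.08 (SE 0.1, limma adjusted p = 0.64). Of 8 markers of natural killer and cytotoxic cells, limma called 0, and limma voom on recovered reads called 0. At an unadjusted p under 0.05, 1 was higher and 2 were lower. The summed FPKM of the 8 markers was 128 to 154 in PBS and 115 to 133 in sHA-X, with none at 0. The part of these cells in the values of Ctsw was not tested. Without PBS replicate 2 or sHA-X replicate 3, 1 was called lower. Ctsh, an aminopeptidase, was 131 ± 16.7 (PBS) and 143 ± 5.05 FPKM (sHA-X), and Tpp1, which removes tripeptides from the amino end, was 29.4 ± 2.67 (PBS) and 32.4 ± 1.25 FPKM (sHA-X). Ctso was 22.3 ± 1.76 (PBS) and 23.0 ± 2.39 FPKM (sHA-X). These 3 differed by 0.13, 0.14 and 0.05 on the log2 scale, with limma adjusted p between 0.23 and 0.78. Ctsh passed the test without PBS replicate 3 (adjusted p = 0.03).

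Among the glycosidases, 4 of 11 were called higher and the other 7 had positive changes that did not pass. Gla (chromosome X, 134588169 to 134601005), alpha-galactosidase A, which removes the terminal galactose of globotriaosylceramide and is deficient in Fabry disease, measured 2.32, 2.66 and 2.51 FPKM in PBS against 5.55, 4.76, 4.28 and 5.60 FPKM in sHA-X. Every sHA-X library lay well above PBS, although Gla was the least abundant of the 47, and the change was 0.78 (SE 0.097, limma adjusted p = 0.002). Gaa (chromosome 11, 119267963 to 119285458), acid alpha-glucosidase, the enzyme of lysosomal glycogen, measured 15.6, 14.0 and 15.7 FPKM in PBS against 21.1, 21.0, 19.4 and 20.1 FPKM in sHA-X. The groups were apart with little spread within each, and the change was 0.41 (SE 0.062, limma adjusted p = 0.0045). Hexa, the alpha subunit of the hexosaminidase that degrades a ganglioside, measured 67.4, 63.1 and 77.9 FPKM in PBS against 98.1, 99.5, 97.3 and 93.0 FPKM in sHA-X. PBS replicate 3 was the highest control and the groups did not overlap, with a change of 0.48 (SE 0.076, limma adjusted p = 0.0055). Naglu, which takes N-acetylglucosamine from heparan sulfate, measured 9.70, 8.59 and 10.3 FPKM in PBS against 12.4, 12.4, 12.1 and 12.5 FPKM in sHA-X. The sHA-X values were nearly equal, all above PBS, and the change was 0.35 (SE 0.066, limma adjusted p = 0.012).

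Glb1, the beta-galactosidase of gangliosides and keratan sulfate, measured 12.4, 11.5 and 14.0 FPKM in PBS against 15.3, 16.3, 14.0 and 15.3 FPKM in sHA-X. PBS replicate 3 and sHA-X replicate 3 were level, so the groups overlapped, and the change was 0.25 (SE 0.078, limma adjusted p = 0.069). It passed without PBS replicate 3 (adjusted p = 0.025). The remaining 6 are Man2b1 and Manba, an alpha- and a beta-mannosidase, Fuca1, the alpha-fucosidase, Gusb, the beta-glucuronidase, Neu1, the sialidase, and Idua, the alpha-iduronidase. Their log2 changes ran from 0.04 (Fuca1) to 0.17 (Man2b1), with limma adjusted p from 0.18 (Gusb) to 0.82 (Manba). Gusb alone of the 6 had separate groups, at 9.86, 8.81 and 10.4 FPKM in PBS against 10.5, 11.7, 10.4 and 11.1 FPKM in sHA-X. PBS replicate 3 and sHA-X replicate 3 differed by very little, at 10.36 and 10.39 FPKM. Man2b1 was the most abundant of them, at 53.6 ± 6.65 (PBS) and 60.3 ± 3.45 FPKM (sHA-X), and Idua the least, at 5.62 ± 0.740 (PBS) and 5.89 ± 0.614 FPKM (sHA-X).

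Only 1 of the 7 sulfatases and phosphatases was called, a phosphatase. Acp2 (chromosome 2, 91202812 to 91214098), the lysosomal acid phosphatase, measured 22.9, 21.8 and 25.5 FPKM in PBS against 30.6, 31.7, 31.5 and 35.1 FPKM in sHA-X. The groups did not overlap, and the change was 0.45 (SE 0.073, limma adjusted p = 0.0063); RefSeq places Ddb2 and Nr1h3 over parts of it. Acp5, the tartrate-resistant acid phosphatase of osteoclasts and macrophages, was far more abundant, at 147, 142 and 168 FPKM in PBS against 174, 175, 173 and 163 FPKM in sHA-X. PBS replicate 3 lay above sHA-X replicate 4, and the change of 0.17 (SE 0.07, limma adjusted p = 0.14) did not pass. Arsa, which removes sulfate from the myelin lipid sulfatide, measured 8.36, 7.07 and 9.04 FPKM in PBS against 10.4, 9.79, 9.30 and 9.95 FPKM in sHA-X. The groups were apart by a narrow gap, and the change was 0.25 (SE 0.083, limma adjusted p = 0.081). Without PBS replicate 3 both Acp5 and Arsa were called higher, 3 of the 7 in all. Arsb, which desulfates dermatan and chondroitin sulfate, was singled out after its values were seen, as the gene with every sHA-X library below every PBS library, at 12.5, 12.7 and 15.0 FPKM in PBS against 11.1, 12.3, 10.8 and 10.9 FPKM in sHA-X. Its change of -0.23 (SE 0.078, limma adjusted p = 0.089) did not pass. Ids, which removes sulfate from dermatan and heparan sulfate, Galns, which does so for keratan sulfate, and Sgsh, which acts on heparan sulfate, changed by 0.11, 0.03 and -0.03. Their limma adjusted p lay between 0.43 and 0.9, and their means between 5.62 and 14.6 FPKM.

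Of the 5 lipid hydrolases 3 rose. Ppt2 (chromosome 17, 34616662 to 34638022), a lysosomal thioesterase, measured 17.1, 16.9 and 18.5 FPKM in PBS against 26.1, 25.6, 25.6 and 25.6 FPKM in sHA-X. The 4 sHA-X values were almost the same, all were above PBS, and the change was 0.53 (SE 0.053, limma adjusted p = 0.00096). RefSeq places Prrt1 over part of Ppt2. Its relative Ppt1, which removes palmitate from proteins, measured 82.0, 79.3 and 90.3 FPKM in PBS against 80.5, 89.2, 75.5 and 88.6 FPKM in sHA-X. The groups overlapped throughout, with a change of -0.01 (SE 0.078, limma adjusted p = 0.96). The ratio of Ppt2 to Ppt1, a pair chosen after the values were seen, was 0.205 to 0.213 in PBS and 0.287 to 0.338 in sHA-X. Pla2g15, the lysosomal phospholipase A2, measured 19.8, 17.3 and 21.2 FPKM in PBS against 31.6, 31.3, 28.9 and 32.2 FPKM in sHA-X. Its groups were well apart, and the change was 0.65 (SE 0.077, limma adjusted p = 0.0016). Asah1, acid ceramidase, measured 49.2, 40.7 and 52.6 FPKM in PBS against 65.3, 67.3, 64.3 and 78.7 FPKM in sHA-X. Replicate 4 was the highest sHA-X library, the groups did not overlap, and the change was 0.53 (SE 0.1, limma adjusted p = 0.013). Smpd1, acid sphingomyelinase, which makes the ceramide that Asah1 cleaves, measured 12.4, 13.9 and 14.1 FPKM in PBS against 14.3, 15.7, 13.9 and 14.1 FPKM in sHA-X. PBS replicate 3 lay just above sHA-X replicates 3 and 4, and the change of 0.10 (SE 0.068, limma adjusted p = 0.37) did not pass.

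Among the luminal cofactors and carriers, Grn and Npc2 rose. Grn (chromosome 11, 102430507 to 102436809), progranulin, a secreted and lysosomal protein cut into granulins, measured 87.7, 75.5 and 95.6 FPKM in PBS against 139.9, 122, 134 and 141 FPKM in sHA-X. The groups were apart by a wide gap, and the change was 0.64 (SE 0.09, limma adjusted p = 0.0034). Npc2, which picks up cholesterol in the lumen and hands it to Npc1, measured 83.7, 81.7 and 97.7 FPKM in PBS against 108, 103, 105 and 107 FPKM in sHA-X. The groups did not overlap, but PBS replicate 3 came close, and the change was 0.27 (SE 0.07, limma adjusted p = 0.036). The call of Npc2 was lost on leaving out any library except PBS replicate 3, with adjusted p up to 0.14, so 1 of the 3 was then called. Without PBS replicate 3 all 3 were. Psap, the precursor of the saposins that present lipids to their hydrolases, was the most abundant of the 47 in PBS, at 673, 644 and 809 FPKM in PBS against 823, 860.1, 774 and 817 FPKM in sHA-X. PBS replicate 3 lay above sHA-X replicate 3, and the change of 0.21 (SE 0.087, limma adjusted p = 0.14) did not pass with all 7 libraries.

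The membrane proteins rose in 4 of 6 cases. Cd68 (chromosome 11, 69664213 to 69666170), a LAMP family protein most abundant in macrophages, measured 55.3, 53.0 and 57.1 FPKM in PBS against 99.9, 101, 97.5 and 109 FPKM in sHA-X. Both groups were tight and far apart, and the change was 0.87 (SE 0.06, limma adjusted p = 0.00025), 1.85-fold by the ratio of means. Scarb2, the membrane protein LIMP-2, measured 48.0, 43.5 and 49.1 FPKM in PBS against 64.9, 62.3, 59.3 and 61.8 FPKM in sHA-X. Without overlap between groups, it changed by 0.40 (SE 0.062, limma adjusted p = 0.005). Lamp1 (chromosome 8, 13159161 to 13175338), a main glycoprotein of the lysosomal membrane, measured 204, 213 and 243 FPKM in PBS against 285, 285, 292 and 295 FPKM in sHA-X. The sHA-X values were nearly equal and all above PBS, with a change of 0.40 (SE 0.069, limma adjusted p = 0.0079). Lamp2, its relative that also takes part in autophagy, measured 37.2, 34.3 and 38.3 FPKM in PBS against 47.5, 45.7, 46.4 and 55.4 FPKM in sHA-X. Replicate 4 was the highest sHA-X library, and the change was 0.40 (SE 0.079, limma adjusted p = 0.013), which missed the threshold without PBS replicate 1 (adjusted p = 0.052). Without both second replicates 2 of the 6 genes were called. Npc1, the cholesterol exporter of the membrane, measured 10.04, 8.69 and 11.3 FPKM in PBS against 13.1, 12.1, 11.6 and 11.4 FPKM in sHA-X. Its groups were separate by a narrow gap, and the change was 0.25 (SE 0.089, limma adjusted p = 0.1). It passed without PBS replicate 3 (adjusted p = 0.032). Mcoln1, the calcium channel TRPML1, measured 11.1, 12.3 and 10.6 FPKM in PBS against 10.99, 9.36, 9.58 and 10.2 FPKM in sHA-X. It was the only membrane protein gene with a negative change, its groups overlapped, and the change was -0.16 (SE 0.076, limma adjusted p = 0.2).

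The 47 genes together made up 3869 to 4329 FPKM in the PBS libraries and 5443 to 5579 FPKM in the sHA-X libraries, or 0.839% to 0.948% and 1.189% to 1.254% of all FPKM. Ctsb, Ctsd, Ctss and Psap carried 51.2% to 56.1% of that sum in every library. The share of Ctsb was 15.4% to 15.9% in PBS and 18.4% to 19.3% in sHA-X, and that of Psap 16.6% to 18.7% and 14.2% to 15.7%. By mean level over all 7 libraries, 4 of 19 genes under 20 FPKM rose, 12 of 17 between 20 and 100 FPKM and 7 of 11 above. These means include the sHA-X values, so a rise itself moves a gene up in level. The difference between these classes was not tested. Within PBS, replicate 3 had the highest value for 42 of the 47 genes and replicate 2 the lowest for 35. Within sHA-X no library stood out as far, with replicate 4 highest for 19 and replicate 3 lowest for 22.

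**Figure D3:**
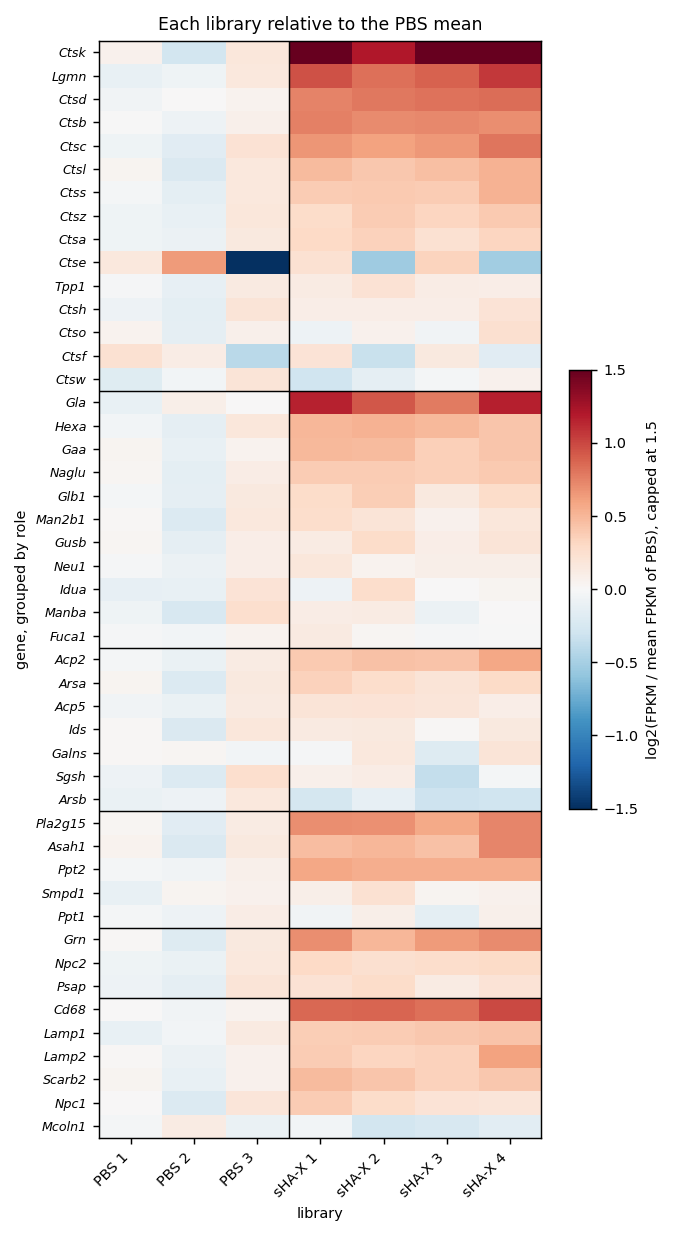
Each gene (rows, grouped by role) in each library (columns), as the log2 of its FPKM over the mean FPKM of PBS, with colour capped at 1.5. Red fills most of the sHA-X columns for the risen genes, PBS replicate 3 is redder than the other PBS libraries, and Ctse is blue in PBS replicate 3.

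**Figure D4:**
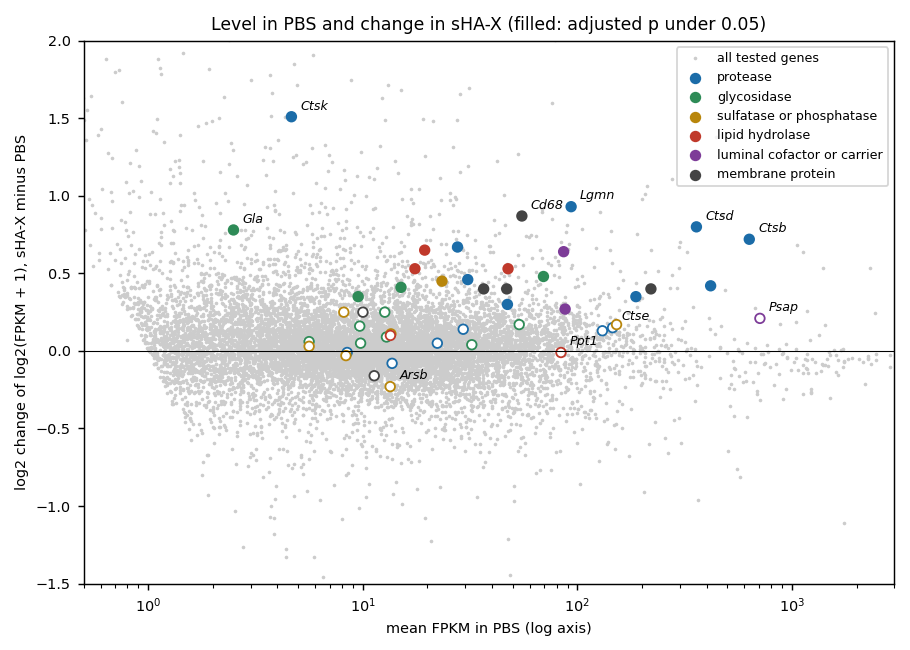
Mean FPKM in PBS (log axis) against the change of log2(FPKM + 1), with the 47 genes coloured by role and filled where the limma adjusted p was under 0.05; grey points are the other tested genes, of which 192 lie beyond the axes. Ctsb and Ctsd combine a high level with a large change, Ctsk and Gla change most among the less abundant genes, and Psap and Ctse are abundant and not called.

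Among lysosomal genes outside the 47, most calls were higher in sHA-X, as were 64.9% of the calls over all tested genes. The share called higher was 21.4% of the hydrolases and carriers and 28.6% of the membrane proteins. Over all tested genes 9.3% were called higher and 5.03% lower. Of 28 tested hydrolases and carriers outside the 47, 6 were higher and 0 lower by limma (7 and 0 by voom, and 0 lower at an unadjusted p under 0.05), with a median log2 change of 0.17. The smallest p belonged to Plbd2, a phospholipase B-like protein (0.39), Dnase2a, the DNase of the lysosome (0.33), Lipa, acid lipase (0.50), and Galc, galactosylceramidase (0.39), with limma adjusted p from 0.0029 to 0.023. Creg1, a secreted glycoprotein that reaches lysosomes, was also called. The count of 6 was unsteady: it was 2 without PBS replicate 1, 3 without sHA-X replicate 1 or 4, 13 without PBS replicate 3 and 1 without both second replicates. Of 21 other lysosomal membrane proteins 6 were higher and 1 lower, Slc38a9. Slc11a1, the metal transporter of phagosomes, was 22.7 ± 2.94 (PBS) and 42.6 ± 1.05 FPKM (sHA-X), a change of 0.88 (SE 0.082, limma adjusted p = 0.00069). Cd63, a tetraspanin, changed by 0.74, Litaf by 0.53 and Laptm4a by 0.32 (adjusted p from 0.0026 to 0.013). Laptm4b and Mfsd1 were also called. Without PBS replicate 1, or without both second replicates, 3 were called higher. Slc38a9, the arginine sensor of the membrane, fell by 0.36 (adjusted p = 0.046), a call kept in no fit without 1 library except that without PBS replicate 3, where 2 of the list were lower.

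Of the machinery that acidifies, supplies and regulates lysosomes, 11.8% of vacuolar ATPase genes, 15.4% of sorting genes and 21.1% of MiT/TFE and nutrient-sensing genes were called higher, beside 9.3% of all tested genes. Of 17 tested subunits and partners of the vacuolar ATPase, the proton pump, 2 were higher: Atp6ap2 (0.32, limma adjusted p = 0.013) and Atp6v0c (0.21, 0.037). The count was 0 without PBS replicate 1, 4 without PBS replicate 3 and 1 without any other single library. Atp6v0c was called in 0 of the 7 fits that left out 1 library. Without both second replicates 0 of this list were called. Of 13 genes of mannose 6-phosphate sorting, Sort1 (0.40) and Ap1s1 (0.33) were higher (adjusted p = 0.01 and 0.015) and Gga2 was lower (-0.32, adjusted p = 0.014). Without PBS replicate 1, 1 was higher and 0 lower, and without both second replicates 0 were called. Of 19 MiT/TFE factors and nutrient-sensing genes 4 were higher. Gpnmb, a glycoprotein of macrophage lysosomes, is counted in this list as a known MITF target and is not itself such a factor or sensor. It measured 0.488, 0.548 and 0.876 FPKM in PBS against 5.55, 3.53, 7.03 and 4.47 FPKM in sHA-X. All 4 sHA-X values were far above PBS, and the change was 1.88 (SE 0.19, limma adjusted p = 0.0011). The other 3 were Rragd (0.35), Lamtor3 (0.20) and Tfec (0.58), with adjusted p from 0.027 to 0.045. Tfec is itself a factor of this family. The others did not pass: Tfeb was 7.01 ± 0.705 (PBS) and 6.15 ± 0.554 FPKM (sHA-X), Tfe3 10.997 ± 0.396 (PBS) and 12.5 ± 0.778 FPKM (sHA-X) and Mitf 0.992 ± 0.259 (PBS) and 1.38 ± 0.210 FPKM (sHA-X), with adjusted p of 0.26, 0.12 and 0.17. Without PBS replicate 1 or 2, sHA-X replicate 3 or 4 or both second replicates, 1 gene of this list was called, and without sHA-X replicate 1 or 2, 2 were.

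Of 9 tested genes listed as cathepsin inhibitors 4 rose, although Serpinb9 among them is known for inhibiting granzyme B. Serpinb6a, a serpin that inhibits serine proteases such as cathepsin G, measured 62.8, 58.7 and 70.2 FPKM in PBS against 105, 106, 102 and 115 FPKM in sHA-X. Cstb, the cytosolic cystatin, measured 57.6, 60.4 and 66.3 FPKM in PBS against 94.9, 84.7, 93.9 and 101 FPKM in sHA-X. In both, the groups were well apart, with changes of 0.74 (SE 0.074, limma adjusted p = 0.00096) and 0.60 (SE 0.076, limma adjusted p = 0.0023). Serpina3g, which inhibits cysteine cathepsins, and Serpinb9 changed by 0.70 and 0.28 (adjusted p = 0.0068 and 0.016). Cst3, the secreted cystatin C, was 673 ± 64.8 (PBS) and 638 ± 27.9 FPKM (sHA-X), with no call (adjusted p = 0.58). Of 15 autophagy genes, Gabarapl1 (0.57, limma adjusted p = 0.0013) and Sqstm1, the cargo receptor of autophagy (0.25, 0.016), were higher and Gabarapl2 lower (-0.32, 0.044). The share called higher was 13.3%, beside 9.3% of all tested genes, and the median log2 change of the list was -0.03. Without PBS replicate 1 or both second replicates 1 autophagy gene was called higher, and Gabarapl2 was called without PBS replicate 3 but in none of the other 6 such fits.

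**Figure D5:**
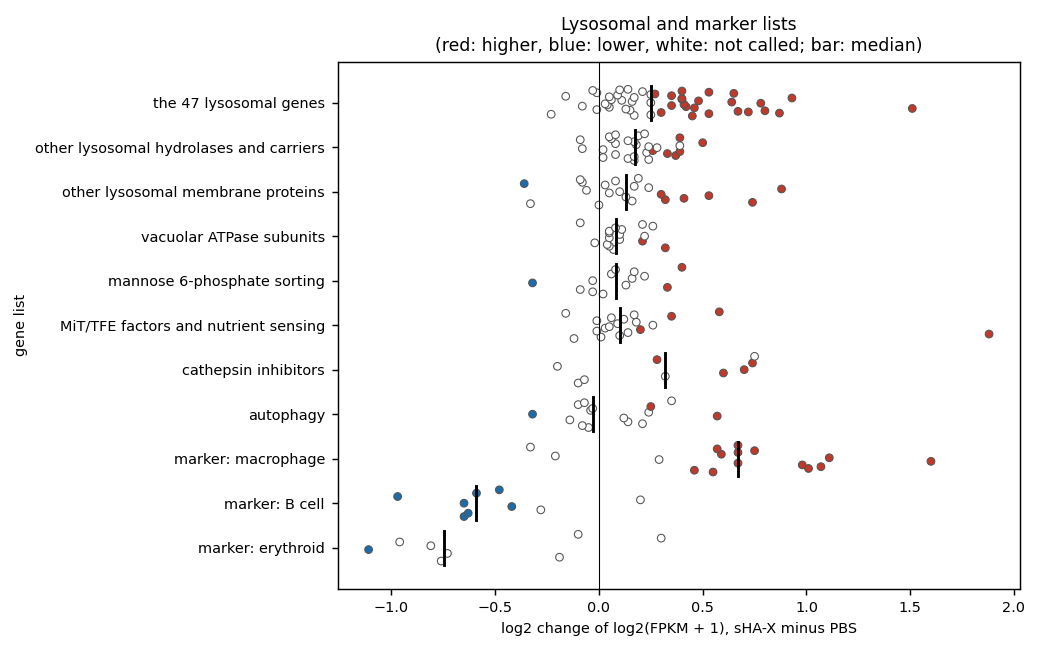
Change of log2(FPKM + 1), sHA-X minus PBS, of every tested gene in the 47, in 7 other lysosome-related lists and in 3 marker lists, coloured by call, with a bar at each median. The medians are 0.25 for the 47, between -0.03 and 0.32 for the other lysosome-related lists, 0.67 for macrophage markers, -0.59 for B cell markers and -0.74 for erythroid markers.

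Cell type markers changed as well, and over all tested genes 9.3% were called higher and 5.03% lower. Of 16 macrophage markers 13 were higher, with summed FPKM of 1766 to 2321 in PBS and 3430 to 3611 in sHA-X, and none at 0. Cd5l, a protein of tissue macrophages, rose 3.06-fold and C1qa, a complement subunit they make, 2.02-fold by the ratio of means (limma adjusted p = 8.3e-05 and 0.00074). Csf1r (0.29), Marco (-0.21) and Timd4 (-0.33) did not pass. PBS replicate 3 had the highest macrophage sum of the PBS libraries and replicate 2 the lowest, as for most of the 47 genes. Of 9 B cell markers 7 were lower, with sums of 1751 to 2095 and 1193 to 1372 FPKM. Both lists, which mark main cell types of the spleen, were thus detected in every library. Hepatocyte markers summed to 3.79 to 9.999 FPKM in PBS and to 5.92, 27.5, 816 and 842 FPKM in sHA-X replicates 1 to 4, with 0 of 9 called by limma, 0 by voom and 0 at an unadjusted p under 0.05. Sums of the 47 genes in sHA-X replicates 1 and 2, where hepatocyte markers were low, were 5526 and 5469 FPKM, and in replicates 3 and 4 they were 5443 and 5579 FPKM. Pancreatic acinar markers reached 1028 FPKM in PBS replicate 2 and at most 35.2 elsewhere, and skeletal muscle markers 189 FPKM in sHA-X replicate 2 and at most 16.3 elsewhere. Adipocyte markers were also highest in sHA-X replicate 2, at 97.9 FPKM, and summed to at most 32.4 FPKM elsewhere. Of 10 monocyte and neutrophil markers 3 were higher. Dendritic cell markers went both ways, with 3 of 8 lower and 1 higher, and leaving out 1 library gave 2 to 3 lower and 0 to 1 higher. T cell markers had 1 of 8 lower and 0 higher, and leaving out 1 library gave 0 to 1 lower. How far the cell makeup of the spleens carried the rise of the lysosomal genes was not tested.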

How the data were processed

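The authors deposited 1 value per gene and library, and the file's header names no unit. The deposited values were read as FPKM: a gene's values are whole multiples of 1 step of its own. From the steps, whole reads (to within 0.05 of a read) came out for each of the 16889 genes detected in 2 or more libraries, and the 704 genes detected in 1 were not recovered. RNA came from TRIzol extraction and libraries from the VAHTS Universal V6 kit, per the labels' protocols. DESeq2, HTSeq, HISAT2, fastp, the mouse build mm10 and R 3.2.0 appear in the submitters' processing notes with no roles given.

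Log2(FPKM + 1) was tested by limma 3.58.1 under R 4.3.3, using its trend and robust options and the group as only term, over the 11920 genes with a mean of at least 1 FPKM over 7 libraries; 10253 were left out. P-values were adjusted by Benjamini-Hochberg over all tested genes, with calls at an adjusted p under 0.05. A change on this scale understates that of low genes. The fit was also run on simulated data, with independent noise for each gene and planted changes of at least 2-fold on this scale. That run does not cover smaller changes or shifts shared by a whole library. Recovered depth was 29543963 to 37142218 reads. The spread between libraries is the error used.

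The members and lists were chosen with earlier results of these data known, so no list was tested as a whole. All 47 genes are accounted for. Those given in every library are, per role, the 4 called genes with the smallest p and the uncalled gene with the largest change, plus 13 set by name. Of the other lists the called genes are named, up to 4 per direction with the smallest p, with 8 more set by name; further genes named were chosen after their values were seen. Some genes that this rule names are not reported here. Alternatives were a pseudocount of 0.1, other filters, scalings and variance models, leaving out libraries, a replicate block and limma voom on recovered reads. Gene positions and promoters are those of RefSeq GRCm38.p6, the mm10 assembly.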

Additional observations from a re-analysis of the deposited data

Results flagged for a closer look

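In 5 of the 47 genes 1 library of the sHA-X group stood apart from the other 3 by more than Dixon's 95% critical value for 4 samples. Chance alone flags about 1 in 20 groups. The PBS group, with 3 libraries, was not examined this way. Ctsh in sHA-X replicate 4 was the highest of its group at 150.4 FPKM. Ctss in sHA-X replicate 4 was likewise the highest, at 598 FPKM. Tpp1 in sHA-X replicate 2 was the highest at 34.2 FPKM. Ids in sHA-X replicate 3 was the lowest at 13.7 FPKM. Ppt2 in sHA-X replicate 1 was the highest at 26.1 FPKM, although all 4 values lay close together. The gaps made up 0.968, 0.887, 0.857, 0.861 and 0.889 of the group's range. Of these genes Ctss and Ppt2 were called higher. The call of Ctss held without sHA-X replicate 4, and that of Ppt2 without sHA-X replicate 1.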

How the results depend on the processing

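Another pseudocount, a stricter filter, no trend or robust estimation and limma voom on recovered reads called the same 23 of the 47 genes. No filter called 22 of them. Median ratio scaling called those 23 higher and 1 gene, Arsb, lower. Quantile normalization called 22 higher, raised the lower genes overall from 600 to 938, and turned the uncalled changes of Fuca1, Idua and Galns to -0.004, -0.016 and -0.037. The replicate block left 276 genes higher and 72 lower, with 10 of the 47 higher. Replicate 4 exists only in sHA-X, so that library adds nothing to the change in this fit. Deviations of same-numbered libraries correlated at 0.15, -0.214 and -0.286, which does not settle whether the numbers pair the libraries. Under the block Ctsf was 0.025, Ctso -0.017 and Galns -0.012. Without both second replicates 492 genes were higher, 330 lower and 15 of the 47 higher, with Ctsf at 0.134, Ctso at -0.025, Manba at -0.081, Idua at -0.043, Ctse at 0.746, Sgsh at -0.167 and Ppt1 at -0.079. Leaving out 1 library at a time gave 488 to 1263 genes higher, 228 to 637 lower and 18 to 29 of the 47 higher. The same fits changed the sign of 9 uncalled genes, with log2 changes from -0.521 to 0.611 for Ctse, -0.184 to 0.097 for Ctsf, -0.018 to 0.086 for Ctso, -0.164 to 0.009 for Ctsw, -0.054 to 0.169 for Manba, -0.001 to 0.148 for Idua, -0.012 to 0.098 for Galns, -0.12 to 0.083 for Sgsh and -0.046 to 0.046 for Ppt1. No called gene changed sign in any of these. The causes were not tested. With 3 and 4 libraries, small changes such as that of Gusb may go undetected.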

Other observations

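Grouping the genes by substrate, a choice made after their values were seen, 1 of 7 enzymes of glycosaminoglycan breakdown (Ids, Idua, Sgsh, Naglu, Gusb, Arsb and Galns) was called higher, Naglu, against 22 of the other 40, and 9.3% of all tested genes were. Glb1, which acts on keratan sulfate among other substrates, and Hexa, whose hexosaminidase also acts on glycosaminoglycans, are counted with the other 40. Hexa was called higher and Glb1 was not. The median log2 change was 0.06 for these 7 and 0.32 for the other 40, described here without a test. Of the 3 enzymes that form a complex, Ctsa, Glb1 and Neu1, only Ctsa was called. Ratios between partners, also chosen after the values were seen, were steady for some and shifted for others. Npc2 over Npc1 was 8.34 to 9.4 in PBS and 8.25 to 9.41 in sHA-X. Ctsb over its inhibitor Cstb was 9.92 to 10.9 and 10.2 to 12.2. Grn over Psap was 0.117 to 0.13 in PBS and 0.142 to 0.173 in sHA-X, without overlap.

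Atp6v0d2, the vacuolar ATPase subunit of osteoclasts and some macrophages, was under the filter and not tested. In PBS its values were 0, 0.0461 and 0.184 FPKM. In sHA-X they were 0.608, 0.886, 0.676 and 1.04 FPKM, each above every PBS value.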
